A study of Homo sapiens with 8 samples.

Results

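Plasminogen activators, the urokinase receptor and 6 serpins were examined in nascent RNA of human fibroblasts. The group held 9 genes, PLAU, PLAUR, PLAT, SERPINE2, SERPINB2, SERPINB3, SERPINB4, SERPINB7 and SERPINB8, which were found by their symbols among 27945 genes of the count table. All 9 had a row, and 8 passed the filter on low counts.

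Nascent transcripts were measured by fastGRO-seq, a run-on assay in which polymerases already engaged on the genes extend their RNA in isolated nuclei with a labeled nucleotide, here for 7 min. The cells were IMR90, a primary human lung embryonic fibroblast strain, kept at low oxygen and carrying an inducible fusion of the estrogen receptor with an oncogenic H-RAS (ER: RAS). The comparisons ask how nascent transcription of these genes differs between control and senescent cells, and between senescent cells with and without a knockdown of METTL3 or METTL14, the paired subunits of the nuclear complex that writes N6-methyladenosine on RNA. Each of 4 groups had 2 libraries, described by the study as independent experiments. The control group was labeled wild type and untreated, with no shRNA named. The other 3 groups were senescent, which in the study's protocol meant 100 nM 4-hydroxytamoxifen and harvest on day 6, and carried a control shRNA (shControl), an shRNA to METTL3 (shMETTL3) or an shRNA to METTL14 (shMETTL14). Each knockdown rested on 1 shRNA per target. Because the control cells had no shRNA in their labels, senescence and shRNA infection cannot be told apart in senescent shControl against control.

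As background, PLAU (urokinase) and PLAT (tissue plasminogen activator) are serine proteases that cut plasminogen into plasmin, which dissolves fibrin and opens the extracellular matrix, and PLAUR is the membrane-anchored receptor that holds urokinase at the cell surface. Serpins are suicide inhibitors: the target protease cuts a loop of the serpin and is trapped on it. SERPINB2 (plasminogen activator inhibitor-2) and SERPINE2 (protease nexin-1) inhibit urokinase and tissue activator, and proteins of this system are part of what senescent fibroblasts are known to secrete.

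Nascent signal of the 7 members with counts in every group was higher in senescent shControl than in control cells, from 3.14-fold for SERPINE2 to 62.4-fold for SERPINB2. Over all 12844 genes tested, 13.3% were called higher and 13.3% lower. SERPINB7 passed the filter on low counts only through senescent libraries, and SERPINB4 only through senescent shControl. The knockdowns then divided the group. SERPINB2 and PLAUR were lower with shMETTL3 and not called with shMETTL14. PLAT was lower with shMETTL14, while its small difference with shMETTL3 was called in some alternative settings only. SERPINB7 was lower with shMETTL3 and higher with shMETTL14.

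The sequences just before the starts are shown because 5 of the 12 RefSeq promoter windows of 8 members, belonging to 4 members, carried the letters of an AP-1 element, as did 6.57% of all 35116 promoters searched. Each is the 250 bases before an annotated start in GRCh38.p14, 5′ to 3′ on the gene's strand, with matches to TGANTCA, the AP-1 element, in capitals. Matches to the TATA box letters, TATAAA, are in capitals too. The SERPINB2 window (chr18:63887455-63887704, plus strand) held 1 AP-1 match ending 96 bases before the start and TATAAA ending 25 bases before it. The PLAUR window (chr19:43670170-43670419, minus strand) held 1 AP-1 match, 180 bases away, and the SERPINB8 window (chr18:63969831-63970080, plus strand) held 2, ending 179 and 22 bases away.
SERPINB2: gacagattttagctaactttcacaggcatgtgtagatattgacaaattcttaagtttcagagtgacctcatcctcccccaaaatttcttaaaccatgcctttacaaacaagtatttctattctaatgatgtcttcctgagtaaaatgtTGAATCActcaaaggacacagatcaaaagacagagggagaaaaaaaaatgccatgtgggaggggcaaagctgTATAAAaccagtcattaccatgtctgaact
PLAUR: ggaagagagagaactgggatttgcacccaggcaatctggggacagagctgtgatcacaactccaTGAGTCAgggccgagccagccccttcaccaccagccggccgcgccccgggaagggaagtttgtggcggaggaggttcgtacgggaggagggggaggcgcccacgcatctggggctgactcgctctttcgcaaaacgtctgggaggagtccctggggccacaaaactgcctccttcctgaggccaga
SERPINB8: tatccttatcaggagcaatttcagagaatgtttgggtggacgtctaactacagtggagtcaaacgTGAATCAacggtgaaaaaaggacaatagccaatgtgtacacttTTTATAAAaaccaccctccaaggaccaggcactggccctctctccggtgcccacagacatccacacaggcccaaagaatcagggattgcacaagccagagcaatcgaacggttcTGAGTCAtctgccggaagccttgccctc

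TGANTCA is its own reverse complement, so each match was counted once, and both strands were searched for TATAAA and for the NF-kB consensus. In SERPINB8 the plus-strand and minus-strand TATAAA matches overlap and are printed as 1 block of capitals. The 8 members had 12 windows, since PLAU and SERPINE2 have 2 annotated starts each and SERPINB7 has 3. All promoters were searched in the same 250 bases. TATAAA was in 3 of the 12 windows and 10.7% of all promoters, and the NF-kB consensus was in 1, at SERPINB7, and 5.21% of all promoters. SERPINB7 had AP-1 matches before 2 of its 3 starts. PLAU, SERPINE2, SERPINB3 and SERPINB4 had no match to any of the 3 motifs in these windows. PLAT was not in the promoter table. A match of letters is a description and no evidence that a factor binds there.

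SERPINB3 and SERPINB4 are shown as a pair because they are near-identical neighbors, and only SERPINB4 had more than 1 count in any library. Their 250 bases before the start (SERPINB3 chr18:63661894-63662143 and SERPINB4 chr18:63644257-63644506, both minus strand, GRCh38.p14) were 98.8% identical and differed at 3 positions, 125, 50 and 23 bases before the start, which are printed in capitals.
SERPINB3: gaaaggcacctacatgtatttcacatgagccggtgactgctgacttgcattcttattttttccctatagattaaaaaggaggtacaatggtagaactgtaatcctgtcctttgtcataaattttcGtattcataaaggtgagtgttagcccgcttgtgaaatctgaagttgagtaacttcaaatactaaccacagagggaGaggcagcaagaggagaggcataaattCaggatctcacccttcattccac
SERPINB4: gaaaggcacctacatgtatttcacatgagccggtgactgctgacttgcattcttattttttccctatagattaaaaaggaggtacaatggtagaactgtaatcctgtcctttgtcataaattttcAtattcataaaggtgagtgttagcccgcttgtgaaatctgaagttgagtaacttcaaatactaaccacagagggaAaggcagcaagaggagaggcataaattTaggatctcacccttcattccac

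Across the 8 libraries the table assigned 14897360 to 20306299 reads to genes, of which 86.2 to 92.5% fell on 21 ribosomal RNA rows, leaving 1513930 to 2048475 other counts. The members took 0.0860 and 0.0877% of these other counts in the control libraries and 0.240 to 0.447% in the senescent libraries. In the knockdown groups METTL3 had 16 and 19 counts with shMETTL3 against 77 and 47 with shControl (log2 fold change −2.04 ± 0.33 (SE), edgeR adjusted p = 1.79e-05). METTL14 had 18 and 14 counts with shMETTL14 against 24 and 28 (−0.86 ± 0.35, edgeR adjusted p = 0.0763), so its knockdown was not called in nascent RNA, a readout that does not measure mature mRNA or protein. All 10 fibroblast markers were present in every library. Their summed counts ran from 25842 to 27163 in control and from 7626 to 12853 in the senescent libraries. Summed epithelial markers reached at most 15 counts, with KRT5, KRT14 and ESRP1 at 0. Endothelial markers summed to 24 to 133, mostly TEK, and blood markers to 17 to 67, mostly CD68. In senescent shControl against control, 8 of 10 fibroblast markers were called lower and 1 higher, TEK was lower (−1.04 ± 0.25, edgeR adjusted p = 0.00201), and CD68 was higher, with 60 and 45 counts against 17 and 16 (2.05 ± 0.35, edgeR adjusted p = 2.55e-05). Their part in the higher levels of the members was not tested. Libraries came from bulk cells, so fewer cells of a type and less RNA per cell cannot be told apart, and each fold change is set against the bulk of genes in its own libraries.

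To compare genes with each other, counts were divided by row length and by the TMM-scaled library total (RPKM). These values are low because most of each total is ribosomal. In senescent shControl, PLAU stood highest at 24.7 ± 2.02 RPKM (SD, n = 2), followed by SERPINB2 at 6.17 ± 0.596, PLAT at 3.62 ± 0.402, PLAUR at 0.516 ± 0.00971 and SERPINE2 at 0.300 ± 0.00508. SERPINB4, SERPINB7 and SERPINB8 followed at 0.118, 0.103 and 0.100 RPKM, and each overlapped the next in its 2 libraries. SERPINB3 was last, with 1 count in 1 library. In control cells PLAU was also first, at 7.23 RPKM, and PLAT second at 0.657, whereas SERPINB2 stood at 0.0984 RPKM, below PLAUR at 0.105.

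**Figure D1:**
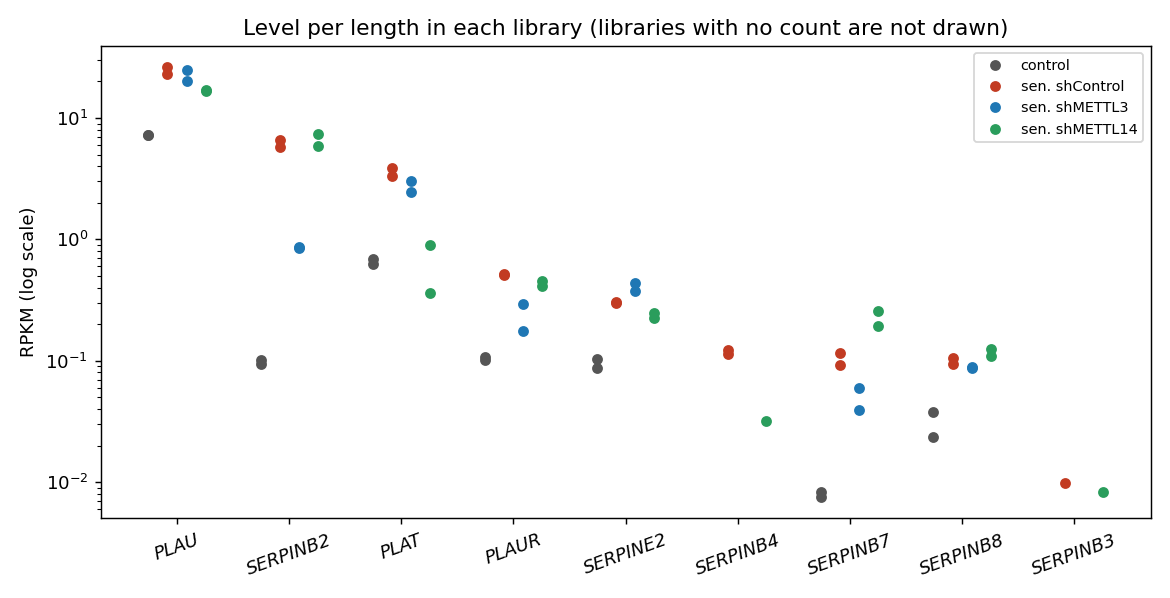
Levels of the 9 genes per length, in RPKM on a log axis, with 1 point per library colored by group and genes ordered by their mean in senescent shControl. PLAU lies highest in every group, from 7.23 RPKM in control to 24.7 in senescent shControl, and SERPINB2 moves from near PLAUR in control to second place in senescent shControl.

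PLAU, the urokinase gene, lies at chr10:75670859-75677258 on the plus strand of hg19. It had 934 and 955 raw counts in control, 2532 and 2395 in senescent shControl, 2785 and 2450 after shMETTL3, and 1922 and 1836 after shMETTL14. All senescent libraries lay above both control libraries, and the shMETTL14 libraries lay below the other senescent ones. PLAU rose 3.41-fold in senescent shControl (log2 fold change 1.77 ± 0.14 (SE), edgeR adjusted p = 1.83e-10). With shMETTL3 the difference from shControl was −0.13 (95% interval −0.41 to 0.15, edgeR adjusted p = 0.549), and normalized by library total alone it turned to 0.48. With shMETTL14 PLAU fell by 0.55 on the log2 scale (SE 0.14, edgeR adjusted p = 0.00453), a call lost without shControl replicate 1 (−0.47, edgeR adjusted p = 0.107) and with library totals alone (−0.20, edgeR adjusted p = 0.313). The row lies wholly inside C10orf55, annotated on the opposite strand, and covers 50.0% of it. C10orf55 counts exceeded those of PLAU by only 3 to 23 in each library. Across the table, 60 of 61 such nested opposite-strand pairs had at least as many counts in the outer gene in every library, so reads of both strands appear to have been counted. Nearly all C10orf55 counts thus lay within the PLAU bases, where PLAU cannot be told apart from C10orf55 by strand.

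PLAT, the tissue-type activator, lies at chr8:42032236-42065242 on the minus strand. It had 457 and 427 counts in control, 1955 and 1775 in senescent shControl, 1732 and 1524 after shMETTL3, and 213 and 508 after shMETTL14. The shMETTL14 libraries spanned the control values, and their pair lay farther apart in ratio than any other pair of this gene. PLAT rose 5.52-fold in senescent shControl (log2 fold change 2.46 ± 0.22, edgeR adjusted p = 2.90e-09). It fell 5.74-fold with shMETTL14 (−2.52 ± 0.22, edgeR adjusted p = 7.21e-09). This SE rests on a spread shared by the 4 groups and does not measure that of the shMETTL14 pair. Without each library in turn the difference ran from −3.33 to −2.02, beyond its 95% interval of −2.98 to −2.06. DESeq2 gave −2.52 ± 0.46 (adjusted p = 1.61e-06). With shMETTL3 the difference was −0.41 (95% interval −0.85 to 0.03, edgeR adjusted p = 0.172), but it was called without either shMETTL14 library (edgeR adjusted p = 0.0207 without replicate 1 and 0.0190 without replicate 2), with no filter on low counts (−0.42, edgeR adjusted p = 0.0245) and with only the 2 groups fitted (−0.43, edgeR adjusted p = 0.0433). Library totals alone turned it to 0.20 (edgeR adjusted p = 0.362). Against control, shMETTL14 differed by −0.06 (95% interval −0.53 to 0.42, edgeR adjusted p = 0.870), a value that 1 library decided: it was 0.48 (adjusted p = 0.0330) without shMETTL14 replicate 1 and −0.86 (adjusted p = 0.000668) without replicate 2. Fibroblast markers moved with PLAT here, since 8 of 10 were called lower with shMETTL14 than with shControl, their sums being 7626 and 8226 against 9223 and 11461. The endothelial marker TEK was lower too, with 13 and 26 counts against 37 and 48 (−1.28 ± 0.33, edgeR adjusted p = 0.00481). The part of these markers in the PLAT, PLAU and SERPINB7 results with shMETTL14 was not tested.

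PLAUR, the urokinase receptor (chr19:44150247-44174498, minus strand), had 53 and 51 counts in control, 187 and 204 in senescent shControl, 125 and 80 after shMETTL3, and 199 and 171 after shMETTL14. The shMETTL3 libraries lay between the control and the other senescent libraries. PLAUR rose 4.90-fold in senescent shControl (log2 fold change 2.29 ± 0.22, edgeR adjusted p = 1.69e-09) and fell 2.20-fold with shMETTL3 (−1.14 ± 0.19, edgeR adjusted p = 5.94e-05), a value that library totals alone reduced to −0.54 (edgeR adjusted p = 0.0350). With shMETTL14 it differed from shControl by −0.24 (95% interval −0.60 to 0.12, edgeR adjusted p = 0.365). Among markers, DCN (−2.91 ± 0.29, edgeR adjusted p = 4.88e-09), THY1 (−0.85 ± 0.18, edgeR adjusted p = 0.00123) and CD68 (−0.84 ± 0.30, edgeR adjusted p = 0.0401) were also lower with shMETTL3 than with shControl, and FAP was higher (0.83 ± 0.16, edgeR adjusted p = 0.000411), with 2 of 10 fibroblast markers lower and 1 higher. Their part in the lower values of PLAUR, SERPINB2 and SERPINB7 with shMETTL3 was not tested. The PLAUR level with shMETTL3 was still above control (1.15 ± 0.23, edgeR adjusted p = 0.000153).

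SERPINB2 (chr18:61554939-61571124, plus strand) showed the widest range of the group. It had 31 and 34 counts in control, 1617 and 1498 in senescent shControl, 246 and 261 after shMETTL3, and 2141 and 1630 after shMETTL14. The shMETTL3 libraries stood far below the other senescent libraries and above control, while the shControl and shMETTL14 libraries overlapped after normalization. SERPINB2 rose 62.4-fold in senescent shControl (log2 fold change 5.96 ± 0.21, edgeR adjusted p = 5.44e-19). It fell 7.15-fold with shMETTL3 (−2.84 ± 0.15, edgeR adjusted p = 2.71e-13), and the normalized mean with shMETTL3 kept 12.6% of the rise from control to senescent shControl. Library totals alone gave −2.22 for this decrease, still called. With shMETTL14 the difference from shControl was 0.11 (95% interval −0.17 to 0.39, edgeR adjusted p = 0.628), which library totals alone moved to 0.47 (edgeR adjusted p = 0.0201). Both knockdowns stayed above control, by 3.13 ± 0.22 with shMETTL3 (edgeR adjusted p = 1.18e-12) and 6.07 ± 0.21 with shMETTL14 (edgeR adjusted p = 9.27e-19).

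SERPINE2, the nexin that also inhibits thrombin (chr2:224839765-224904036, minus strand), had 114 and 137 counts in control, 296 and 307 in senescent shControl, 492 and 454 after shMETTL3, and 285 and 248 after shMETTL14. Its shMETTL3 libraries were the highest. SERPINE2 rose 3.14-fold in senescent shControl (log2 fold change 1.65 ± 0.15, edgeR adjusted p = 2.80e-09) and was a further 1.35-fold higher with shMETTL3 (0.44 ± 0.14, edgeR adjusted p = 0.0218), a small step that was not called by DESeq2 (adjusted p = 0.0780) or by edgeR without shControl replicate 1 or 2 or shMETTL3 replicate 1 (adjusted p = 0.121, 0.173 and 0.104). With library totals alone it was larger and called (1.05, edgeR adjusted p = 9.00e-07). With shMETTL14 the difference was −0.34 (95% interval −0.63 to −0.05, edgeR adjusted p = 0.0899), which was called when only these 2 groups were fitted (edgeR adjusted p = 0.0304) or without shMETTL3 replicate 1 or 2 (edgeR adjusted p = 0.0373 and 0.0372).

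**Figure D2:**
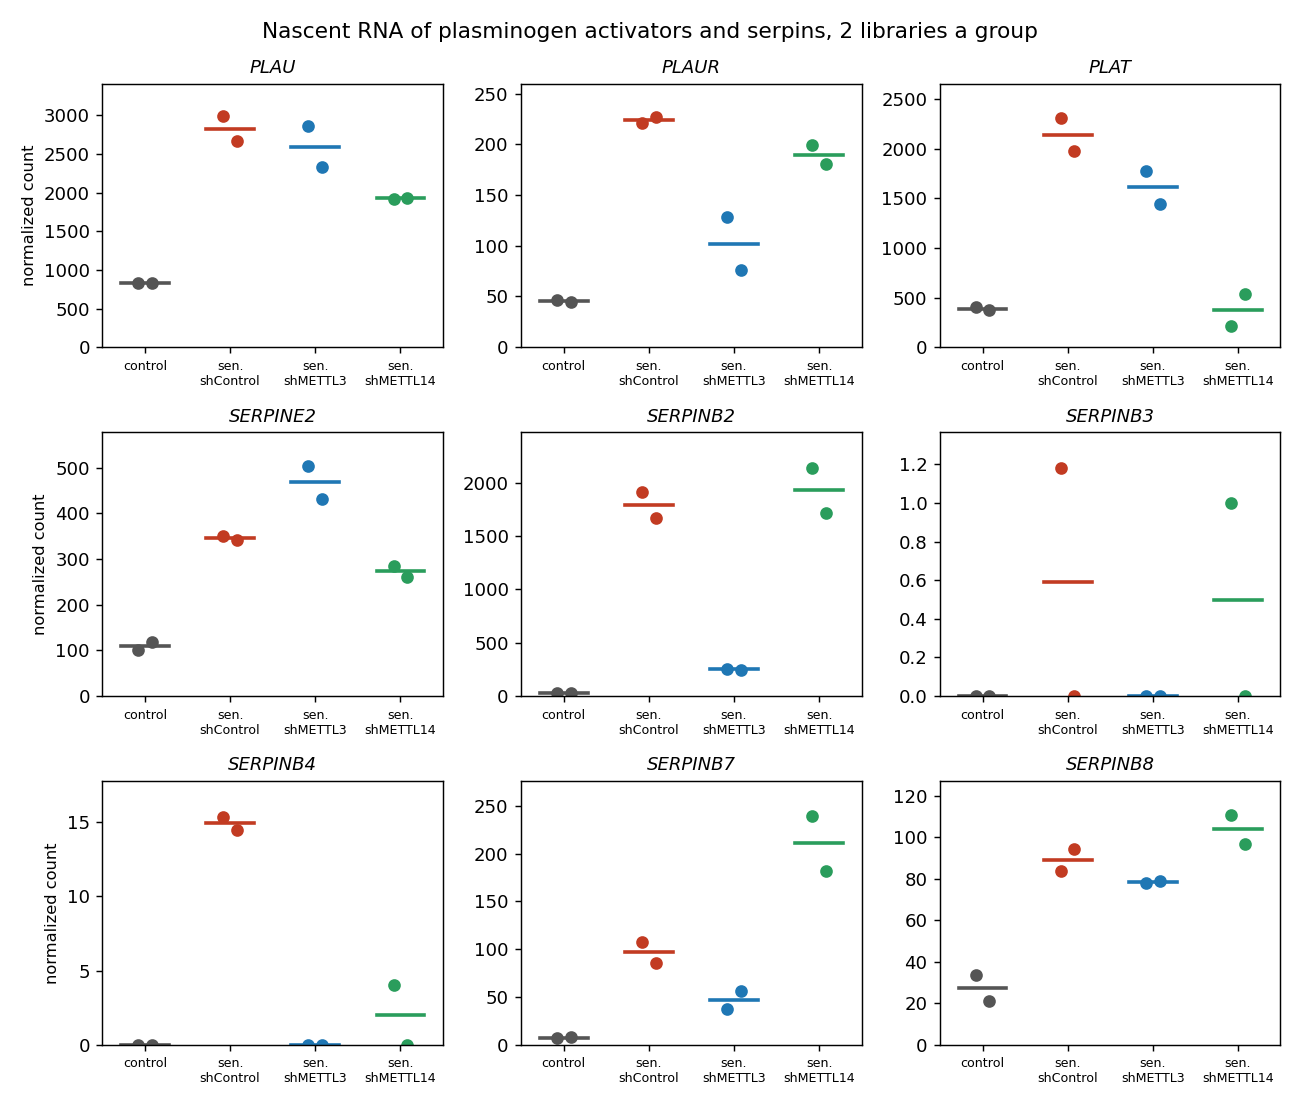
Normalized counts of the 9 genes in the 4 groups on linear axes that start at 0, with 1 point per library and a line at the mean of 2 libraries. SERPINB2 is low with shMETTL3, PLAT is low with shMETTL14, and SERPINE2 is highest with shMETTL3. SERPINB3 stays at 1 raw count or fewer.

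The clade B serpins other than SERPINB2 are not plasminogen activator inhibitors by name: SERPINB3 and SERPINB4 are the squamous cell carcinoma antigens, SERPINB7 is also known as megsin, and SERPINB8 is an intracellular inhibitor of furin-like proteases. All lie with SERPINB2 in 1 cluster on chromosome 18. SERPINB7 (chr18:61420281-61472610, plus strand) had 8 and 9 counts in control, 91 and 77 in senescent shControl, 36 and 59 after shMETTL3, and 239 and 173 after shMETTL14. No 2 groups overlapped. It rose 12.7-fold in senescent shControl (log2 fold change 3.67 ± 0.40, edgeR adjusted p = 9.19e-10), fell 2.06-fold with shMETTL3 (−1.04 ± 0.24, edgeR adjusted p = 0.00176) and rose 2.18-fold with shMETTL14 (1.13 ± 0.20, edgeR adjusted p = 0.000122). It passed the filter through all 3 senescent groups and not through control, so the p against control is no independent support. With library totals alone the decrease with shMETTL3 was −0.42 and was not called (edgeR adjusted p = 0.190).

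SERPINB8 (chr18:61637263-61687013, plus strand) had 38 and 24 counts in control, 71 and 85 in senescent shControl, 76 and 83 after shMETTL3, and 111 and 92 after shMETTL14. It rose 3.27-fold in senescent shControl (log2 fold change 1.71 ± 0.25, edgeR adjusted p = 4.03e-06). Neither knockdown differed from shControl beyond the spread, with −0.19 for shMETTL3 (95% interval −0.62 to 0.25, edgeR adjusted p = 0.565) and 0.22 for shMETTL14 (95% interval −0.20 to 0.64, edgeR adjusted p = 0.498).

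SERPINB4 (chr18:61304493-61311553, minus strand) had 13 counts in each senescent shControl library and 0 in both control and both shMETTL3 libraries, with 4 and 0 counts with shMETTL14. It passed the filter only through the group where it is high. Against a floor of 3 counts per library it was at least 5.66-fold higher in senescent shControl than in control and at least 5.03-fold lower with shMETTL3, which are descriptions with no test. SERPINB3 (chr18:61322431-61329197, minus strand) had 1 count in 1 senescent shControl library, 1 in 1 shMETTL14 library and 0 in the other 6, so it was not tested. At hg19, 29.7% of the 36-base words and 12.3% of the 75-base words of SERPINB4 also occur in SERPINB3, so reads of the pair could be split or lost, and the SERPINB4 counts are uncertain to that extent.

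Within the cluster the signal was patchy. SERPINB5, SERPINB12, SERPINB13 and SERPINB11 had 0 counts in all 8 libraries, although SERPINB11 lies between SERPINB3 and SERPINB7. A count of 0 in a library allows up to 3 counts, so their absence is known only at this depth. SERPINB10, just downstream of SERPINB2, had 1 and 0 counts in control and 12 and 10 in senescent shControl. It had 5 and 15 counts with shMETTL3 and 9 in each shMETTL14 library. SERPINB10 was the only one of 9 rows within 200 kb of the clade B members that passed the filter on low counts, which it did through its senescent libraries, so no test is given for it.

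**Figure D3:**
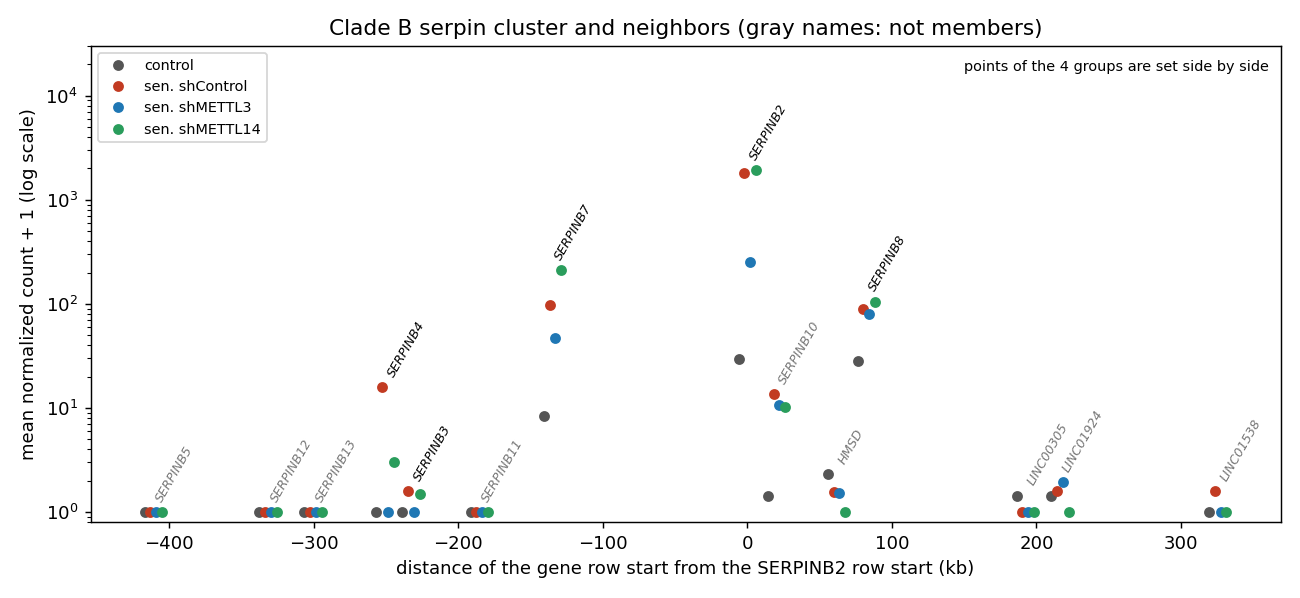
Mean normalized count plus 1 (log axis) of the clade B serpins and neighboring rows in the 4 groups, placed by the distance of each row's start from that of SERPINB2 in kb. SERPINB2, SERPINB7 and SERPINB8 stand above the rows between them, and SERPINB11, SERPINB13, SERPINB12 and SERPINB5 lie at the bottom with 0 counts.

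Of the 9 members, 6 were above the filter in both control libraries, and all 6 (PLAU, PLAUR, PLAT, SERPINE2, SERPINB2 and SERPINB8) were called higher in senescent shControl than in control, where 13.3% of genes were called in each direction. SERPINB7, SERPINB4 and SERPINB3 are not in this count. With shMETTL3, 3 members (PLAUR, SERPINB2 and SERPINB7) were lower than in shControl, where 11.2% of genes were, and SERPINE2 was higher, where 12.3% of genes were. With shMETTL14, 2 members (PLAU and PLAT) were lower, where 12% of genes were, and SERPINB7 was higher, where 9.15% of genes were. Over all genes tested, 1711 were higher and 1702 lower in senescent shControl, and library totals alone turned this split to 752 and 5015. The same change turned 1574 higher and 1434 lower with shMETTL3 to 5287 and 353, and 1175 and 1545 with shMETTL14 to 3163 and 709. Single libraries moved these counts as well. In senescent shControl the higher count was 1066 without shControl replicate 1, and the lower count was 994 and 1092 without control replicate 1 or 2 and 763 and 1092 without shControl replicate 1 or 2. Without shControl replicate 1 or 2, the counts with shMETTL3 were 885 and 769 higher and 853 and 723 lower, and those with shMETTL14 were 554 and 509 higher and 939 and 873 lower. Without shMETTL14 replicate 1, 486 were higher and 784 lower with shMETTL14. These member counts rest on comparisons that share the 2 shControl libraries, and they leave out SERPINB4, which could be tested only because of its senescent shControl counts. Of the 6 members above the filter in both control libraries, all 6 were higher than control with shMETTL3 (20.1% of genes were) and 5, all but PLAT, with shMETTL14 (19.7% of genes were).

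The knockdowns were also compared with each other. SERPINB2 was 7.71-fold higher with shMETTL14 than with shMETTL3 (log2 fold change 2.95 ± 0.15, edgeR adjusted p = 2.59e-13), SERPINB7 was 4.50-fold higher (2.17 ± 0.22, edgeR adjusted p = 1.76e-08) and PLAUR was 1.87-fold higher (0.90 ± 0.19, edgeR adjusted p = 0.000536). PLAT was 4.32-fold lower with shMETTL14 (−2.11 ± 0.22, edgeR adjusted p = 7.84e-08, with −1.61 without shMETTL14 replicate 1 and −2.91 without replicate 2), SERPINE2 was 1.71-fold lower (−0.78 ± 0.14, edgeR adjusted p = 8.28e-05) and PLAU was 1.34-fold lower (−0.43 ± 0.14, edgeR adjusted p = 0.0168). The PLAU difference was not called without shMETTL3 replicate 1 (−0.26, edgeR adjusted p = 0.153) or with only the 2 groups fitted (−0.41, edgeR adjusted p = 0.109). In this comparison 16.5% of genes were called higher and 18.7% lower (995 higher and 1409 lower without shMETTL14 replicate 1, against 2118 and 2399). SERPINB8 differed by 0.41 (95% interval −0.01 to 0.83, edgeR adjusted p = 0.123). Among markers, 6 of 10 fibroblast markers were lower with shMETTL14 than with shMETTL3 and 1 was higher, and TEK was lower (−1.52 ± 0.32, edgeR adjusted p = 0.000321). Their part in these member differences was not tested.

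**Figure D4:**
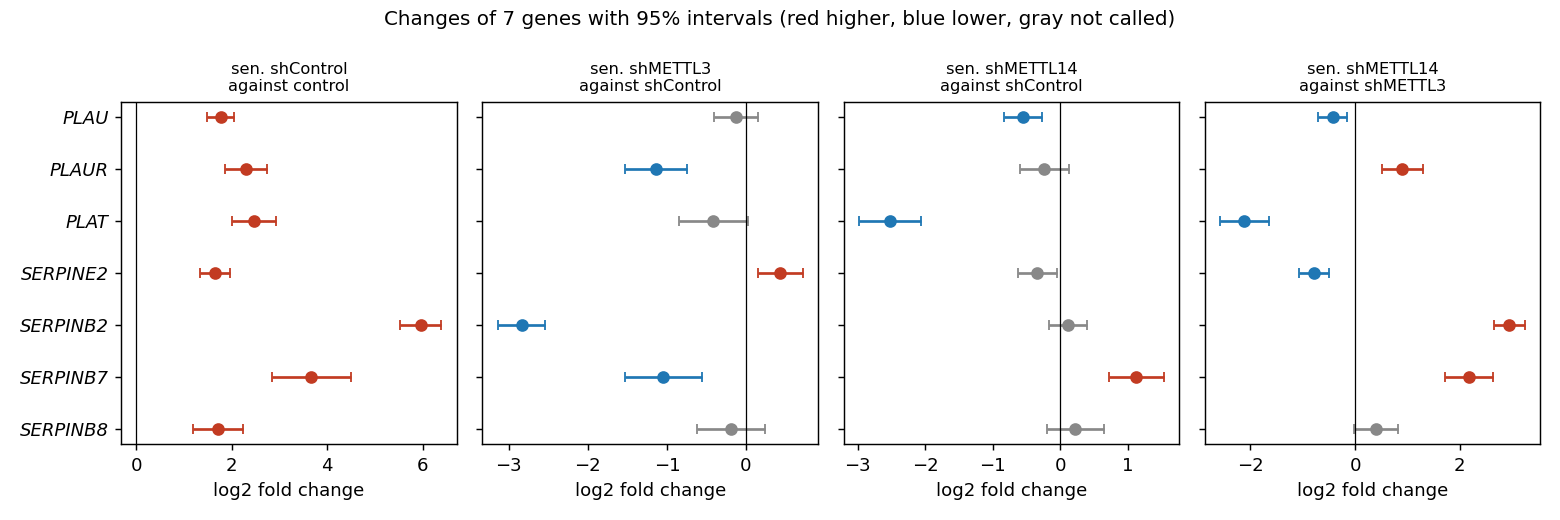
Log2 fold changes of the 7 members with counts in every group, with 95% intervals, for senescent shControl against control, each knockdown against shControl, and shMETTL14 against shMETTL3. All 7 lie to the right of 0 in senescent shControl, SERPINB2 lies lowest with shMETTL3 at −2.84, and PLAT lies lowest with shMETTL14 at −2.52.

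Of 25 other genes of the plasminogen and pericellular clotting system, 18 were tested, of which 15 were above the filter in both control libraries. Of these 15, 7 were higher and 2 lower in senescent shControl, where 13.3% of all genes were called in each direction. TFPI2, a matrix-bound protease inhibitor that also acts on plasmin, rose from 90 and 106 to 1835 and 1750 counts (4.58 ± 0.16, edgeR adjusted p = 1.41e-17). THBD (thrombomodulin) had 1 and 0 counts in control and 54 and 49 in senescent shControl. THBD and SERPINI1 were above the filter in no control library and VLDLR in 1, so these 3 are not in the count and no test is given for them against control. The integrin subunits ITGB1 (1.75 ± 0.13, edgeR adjusted p = 1.31e-10) and ITGB3 (1.73 ± 0.24, edgeR adjusted p = 2.20e-06) also rose. The median log2 fold change over the 15 was 0.29, against −0.03 over all genes tested.

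With shMETTL3, 3 of the 18 were higher and 8 lower, beside 12.3% and 11.2% of all genes. THBD fell to 13 and 15 counts (−2.09 ± 0.33, edgeR adjusted p = 1.34e-05) and ITGB1 fell (−0.85 ± 0.13, edgeR adjusted p = 3.47e-05), while PLGRKT, a plasminogen receptor (0.87 ± 0.29, edgeR adjusted p = 0.0265), and HGF, a growth factor of the plasminogen fold (0.67 ± 0.15, edgeR adjusted p = 0.00145), rose. With shMETTL14, 3 were higher and 8 lower as well, beside 9.15% and 12% of all genes. THBD rose to 141 and 128 counts (1.22 ± 0.22, edgeR adjusted p = 0.000189), as did ANXA2, a cell-surface docking protein for plasminogen and PLAT (0.85 ± 0.14, edgeR adjusted p = 3.70e-05). The endocytic receptors MRC2 (−1.05 ± 0.16, edgeR adjusted p = 1.74e-05), which partners PLAUR, and LRP1 (−0.80 ± 0.16, edgeR adjusted p = 0.000648), which clears activator and serpin complexes, fell. Medians over the 18 were −0.36 with shMETTL3 and −0.41 with shMETTL14, against −0.03 and 0.00 over all genes.

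Of 31 serpins outside the group, 12 were tested. Several of them passed the filter only through a group where they are high, among them SERPINA9, SERPINA1, SERPINB10 and SERPINI1. Every call of a knockdown against shControl was SERPINA9 or SERPINA1, so no count of calls is given. SERPINA9 had 0 counts in control, 15 and 11 in senescent shControl, 0 with shMETTL3 and 1 in each shMETTL14 library, and SERPINA1 had 24 and 21 counts with shMETTL14 and at most 5 elsewhere. SERPINH1, a collagen chaperone that inhibits no protease, was lower in senescent shControl (−0.58 ± 0.16, edgeR adjusted p = 0.00628), where the collagen genes COL1A1, COL1A2 and COL3A1 were lower too.

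The genes whose normalized log2 counts ran most like those of PLAU, PLAUR, PLAT, SERPINE2 and SERPINB2 over the 8 libraries were sought among 3878 well counted genes, as a description. For SERPINB2 these were CSF3, the granulocyte colony-stimulating factor (Pearson r = 0.996), and MSN, the actin linker moesin (r = 0.996). Such an r does not measure the size of a change, and MSN had only 724 and 725 counts in control and 1109 and 1171 in senescent shControl. CSF3 had 0 counts in both control libraries, 36 and 17 with shMETTL3, and 289 and 254 in senescent shControl, near the 374 and 296 with shMETTL14. For PLAT they were VWA5A (r = 0.990), which had 352 and 332 counts in senescent shControl and 44 and 104 with shMETTL14, and STXBP3 (r = 0.980). STXBP3 changed far less, with 114 and 119 counts in senescent shControl and 98 and 105 with shMETTL14. PLAUR ran with IRGQ (r = 0.998) and BSG (basigin, r = 0.995), SERPINE2 with SERINC3 and LPXN (r = 0.991 each), and PLAU with C10orf55, which shares its reads, and SLC16A6 (r = 0.992). The 8 points share 4 groups, so group differences by themselves can give high values, and likeness within groups was not tested.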

How the data were processed

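The deposited table holds whole-number counts per gene body, made by the authors with HOMER on hg19 from STAR alignments, with deepTools 3.3 also in the submitters' processing notes. The length of each row in bases was deposited beside the counts. Read length was not given in the sources used here. The study added fly nuclei as a spike-in, which were not analysed here, so values are relative within a library. The members and gene lists were chosen with earlier results of these data known.

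The members were matched by symbol. Counts of all 8 libraries were fitted in 1 model of 4 groups with edgeR 4.0.16 (limma 3.58.1, R 4.3.3): TMM normalization, filterByExpr with a minimum count of 10 (12844 of 27945 genes tested), the quasi-likelihood test and Benjamini-Hochberg adjustment over all genes tested, with calls at an adjusted p below 0.05. Standard errors and 95% intervals came from the same fit. The common biological coefficient of variation was 10.6%. The spread differed between groups. Variance between the 2 libraries was 1.74 times the sampling noise in control, 7.15 in senescent shControl, 19.4 with shMETTL3 and 11.4 with shMETTL14. The fit shares 1 spread per gene over the 4 groups, so standard errors, intervals and p-values of knockdown comparisons may be too narrow. DESeq2 1.42.0, other normalizations, filters and thresholds, a replicate block, removal of the ribosomal RNA rows and leaving out each library were alternatives. RPKM used the deposited row length. A fold against a group at 0 was bounded with a floor of 3 counts per library, and intervals and floors cover these libraries only. The scripts were tested on simulated data.

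Named from each list were up to 4 called genes with the largest change in each main comparison and a mean of at least 20 counts, besides the genes most like each member (at least 100 counts). A gene that the rule also names is counted in its lists and is not reported here. SERPINB10, SERPINA9, SERPINA1, SERPINI1 and the rows at 0 in the cluster were named after their values were seen. Promoter sequences were from RefSeq (GRCh38.p14) and 8 of 9 members matched. Base words were counted on the GRCh37 sequence, which has the coordinates of hg19. Python 3.11.15, pandas 2.3.3 and matplotlib 3.10.9 were used.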

Additional observations from a re-analysis of the deposited data

Results flagged for a closer look

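For 6 members the effect of shMETTL14 differed from that of shMETTL3 by a direct edgeR test between the 2 knockdown groups. On the log2 scale, shMETTL14 minus shMETTL3, the differences were 2.95 for SERPINB2, 2.17 for SERPINB7 and 0.90 for PLAUR, and −2.11 for PLAT, −0.78 for SERPINE2 and −0.43 for PLAU. Over all genes tested, 16.5% were called higher and 18.7% lower in this comparison. For each of the 6 members, both libraries of 1 group lay on the same side of both libraries of the other. How many of all genes did so was not counted, so this adds no support to the calls. No member had 4 or more libraries in a group, so single libraries that stand apart could not be tested. The 2 shMETTL14 libraries of PLAT, with 213 and 508 counts, lay farther apart in ratio than any other pair with at least 100 counts among these genes.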

How the results depend on the processing

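Of 848 member fold changes under the alternatives, 809 kept their direction and their side of the threshold, 22 lost a call, 9 gained one, 2 turned with a call and 6 turned without a call in either setting. PLAU with shMETTL3 turned to 0.48 with library totals alone, which also put the median of all genes at −0.53 in senescent shControl, 0.58 with shMETTL3 and 0.35 with shMETTL14. PLAT with shMETTL14 against control turned to 0.48 without shMETTL14 replicate 1 and was −0.86 without replicate 2. Counts here include SERPINB4 and SERPINB7, which passed the filter only where they are high. With SERPINB4 and SERPINB7 counted, 8 members were higher in senescent shControl, and this went to 7 under DESeq2 and to 6 with at least 10 counts in every library. The calls of SERPINB4 and SERPINB7 against control are no independent support. Over all genes tested, those called higher went from 1711 to 1231 under DESeq2.

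With shMETTL3, members higher than shControl went from 1 to 0 under DESeq2, an adjusted p below 0.01 or a log2 fold change of at least 1, to 2 with library totals alone, and ranged from 0 to 1 without each library. Members lower went from 4 to 2 with at least 10 counts in every library, where fewer genes are tested, and ranged from 4 to 5 without each library. With shMETTL14, members higher went from 1 to 2 with library totals alone and to 0 with at least 10 counts in every library. Members lower, 3 in the main analysis, ranged from 1 to 4 without each library, and those lower against control from 0 to 1. Between the knockdowns, members lower with shMETTL14 went from 3 to 1 at a log2 fold change of at least 1. Counts over all genes moved in these settings too. Genes higher with shMETTL3 went from 1574 to 957 under DESeq2, 964 at an adjusted p below 0.01 and 595 at a log2 fold change of at least 1. With library totals alone they went to 5287, and those higher with shMETTL14 went from 1175 to 3163. The moves are therefore not particular to the members. Apart from filters and thresholds, their cause was not tested.

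Ranked by normalized count without length, senescent shControl put PLAT at 2, SERPINB2 at 3, SERPINE2 at 4, PLAUR at 5, SERPINB7 at 6, SERPINB8 at 7 and SERPINB4 at 8. DESeq2 called 908 genes lower in senescent shControl (1702 by edgeR), 957 higher and 728 lower with shMETTL3 (1574 and 1434) and 568 higher and 951 lower with shMETTL14 (1175 and 1545). Same-numbered libraries deviated together by r from −0.04 to 0.10, so they share only a number. With the replicate block, 8 members were higher in senescent shControl, 1 higher and 4 lower with shMETTL3, and 1 higher and 3 lower with shMETTL14, the same counts as without it. With 2 libraries a group, small changes such as those of SERPINE2 and PLAU lie near what the depth and spread can show.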
